A study of Mus musculus with 12 samples.

Results

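Glutathione S-transferases (GSTs) were examined in immortalized mouse embryonic fibroblasts (MEFs) as 10 genes: Gstp1 of the pi class, Gsto1 of the omega class, Gstm1, Gstm2 and Gstm5 of the mu class, Gsta4 of the alpha class, Gstz1 of the zeta class, Gstt1 and Gstt2 of the theta class, and the membrane-bound Mgst1. They were chosen by name, as a list, from the 34866 genes of the deposited TPM table, with earlier results of these data known. TPM, a transcript's share of a library after scaling for its length, lets levels be compared between genes. Each of the 10 had 1 identifier in the table, and all 10 averaged 1 TPM or more, the level needed to enter the tests.

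The 12 libraries of polyadenylated RNA came from 4 groups of 3: male WT, female WT, male Sirt3 KO and female Sirt3 KO. Sirt3 encodes a deacetylase of mitochondria. The MEFs were derived from individual 13-day-old embryos and immortalized with SV40. Embryos of the WT lines were of the 129S1/SvImJ stock and those of the KO lines of a separate Sirt3 KO stock. Cells at passage 6 were collected 48 h after seeding, with no further treatment stated. The cultures were seeded in triplicate and the number of lines per group was not stated. Genotype and stock cannot be told apart, while each stock gave male and female cultures. If a group was 1 line, neither genotype nor sex can be told apart from the line, and p-values then measure only the spread between these libraries, which may be technical.

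The labels were first set against Sirt3 itself. In male MEFs, Sirt3 was at 6.59, 7.17 and 9.07 TPM in the libraries labelled WT and at 8.88, 10.9 and 11.0 TPM in those labelled KO. In female MEFs, it was at 7.40, 7.60 and 8.69 TPM in the libraries labelled WT and at 7.57, 9.06 and 8.19 TPM in those labelled KO. Sirt3 mRNA was therefore not lower under the KO label in either sex (differences of 0.39 and 0.059 on the log2(TPM + 1) scale, adjusted p = 0.0981 and 0.772, limma; the male difference passed as higher, at 0.0403, with all 12 libraries in one fit), and a gene-level TPM does not show which exons were read. The check covers mRNA alone, as the TPM hold no measure of SIRT3 protein. Every direction given here rests on the labels, and WT and KO name libraries by label.

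All 12 libraries had their nearest neighbour, by root mean square difference of log2(TPM + 1), within their own group. The 10 most abundant genes took up 5.82% to 7.33% of a library's TPM, and 12256 to 12637 genes reached 1 TPM. The depth behind the TPM is unknown. Of 9 fibroblast markers, 8 had a mean of at least 1 TPM in every group, and their sum was 9063 to 10178 TPM in male WT, 11399 to 12094 TPM in male KO, 7926 to 8117 TPM in female WT and 9694 to 10026 TPM in female KO libraries. Of these 8 fibroblast markers, 4 were called higher in male KO and 6 in female KO libraries, and none was called lower, where 10.7% of all tested genes were called higher in male and 5.63% in female KO libraries. The sum of 5 epithelial markers was 9.60 to 10.6 TPM in male WT and 0.603 to 1.26 TPM in male KO libraries, and 6.35 to 7.46 TPM in female WT and 1.80 to 2.25 TPM in female KO libraries. The sum of 4 endothelial markers was highest in female WT, at 4.72 to 5.76 TPM, against 1.40 to 2.25 TPM in the other groups. Most of this sum was Kdr, at 4.28 to 5.08 TPM in female WT libraries. The others, Pecam1, Cdh5 and Tek, had at most 0.604, 0.112 and 0.225 TPM in any library. The 5 markers of leukocytes and macrophages summed to 4.18 to 11.4 TPM. Of these, Cd68 was at 3.95 to 9.93 TPM over the 12 libraries, and Adgre1 was at 0 in all. Csf1r was at 0.165 to 0.286 TPM in male WT and 1.25 to 1.64 TPM in male KO libraries. In female libraries Csf1r was at 0.0973 to 0.254 TPM under the WT label and 0.203 to 0.346 TPM under the KO label. Ptprc and Lyz2 had at most 0.116 and 0.195 TPM in any library. Markers of hepatocytes summed to at most 0.293 TPM. The part of these marker shifts in the values of the GST genes was not tested. In RNA from whole cultures, fewer cells of a type and less RNA per cell cannot be told apart.

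GSTs attach the thiol of glutathione to electrophilic compounds, such as aldehydes from lipid peroxidation, which makes these compounds more soluble and ready for export. The soluble enzymes work in the cytosol as dimers, and a few classes have additional tasks: omega enzymes reduce disulfides and dehydroascorbate, zeta enzymes isomerize maleylacetoacetate in tyrosine breakdown, and the membrane-bound enzymes sit in the endoplasmic reticulum and the outer mitochondrial membrane. Many GST genes carry antioxidant response elements, to which the transcription factor NRF2 and small MAF proteins bind.

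The promoters of the 4 genes whose KO response differed between the sexes are given here, because these genes carry the main result. They are RefSeq sequences of GRCm38.p6, read 5′ to 3′ on the strand of the gene, and cover the 250 bases before the annotated start: Gstm5 at chr3:107895604-107895853 (plus strand), Mgst1 at chr6:138140277-138140526 (plus strand), Gstp1 at chr19:4037913-4038162 (minus strand) and Gsto1 at chr19:47854723-47854972 (plus strand). Capitals mark the core of the antioxidant response element, TGACNNNGC on either strand, or of the hypoxia response element, ACGTG on either strand.
Gstm5: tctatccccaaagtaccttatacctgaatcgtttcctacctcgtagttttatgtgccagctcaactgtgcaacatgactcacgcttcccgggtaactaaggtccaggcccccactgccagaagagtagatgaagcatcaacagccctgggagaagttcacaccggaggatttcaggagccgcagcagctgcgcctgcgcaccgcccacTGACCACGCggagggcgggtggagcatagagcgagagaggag
Mgst1: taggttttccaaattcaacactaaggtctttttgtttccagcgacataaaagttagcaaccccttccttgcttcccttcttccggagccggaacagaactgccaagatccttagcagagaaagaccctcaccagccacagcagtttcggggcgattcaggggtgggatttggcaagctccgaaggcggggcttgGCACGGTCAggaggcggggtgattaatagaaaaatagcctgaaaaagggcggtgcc
Gstp1: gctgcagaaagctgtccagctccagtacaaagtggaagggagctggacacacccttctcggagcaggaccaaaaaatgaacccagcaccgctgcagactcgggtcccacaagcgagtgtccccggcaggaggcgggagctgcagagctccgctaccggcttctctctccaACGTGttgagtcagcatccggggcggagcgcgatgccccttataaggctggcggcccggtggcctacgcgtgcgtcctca
Gsto1: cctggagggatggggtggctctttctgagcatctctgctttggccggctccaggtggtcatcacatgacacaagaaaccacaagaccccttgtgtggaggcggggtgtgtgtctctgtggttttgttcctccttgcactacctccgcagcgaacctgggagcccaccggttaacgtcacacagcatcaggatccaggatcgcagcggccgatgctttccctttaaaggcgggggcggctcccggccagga
The antioxidant core began 42 bases before the start in Gstm5 and 56 bases before it in Mgst1, where it lay on the opposite strand. The starts used here are those of RefSeq and lie inside the gene spans given below, so each printed window partly overlaps its gene. Most of the Mgst1 window does so, the antioxidant core included. Mgst1 has another RefSeq start further downstream, whose window (chr6:138141337-138141636) held no such core. The hypoxia core began 80 bases before the start of Gstp1, and neither core was in the Gsto1 window. Only the form TGACNNNGC was searched as the antioxidant core. Just after the hypoxia core of Gstp1 stand the letters tgagtcagc, which miss that form by a G in place of its C. Whether these letters act as an antioxidant element was not tested.

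Of the 10 genes, 8 had RefSeq promoters, with 11 windows in all, each searched from 250 bases before to 50 bases after the start. The antioxidant core was found in 2 of the 11 windows, or 18.2%, and in 12.4% of all 32851 promoter windows of that length. The hypoxia core was found in 3 member windows, those of Gstp1, Gstt1 and 1 of the windows of Gstm1, and in 19.6% of all windows. A C/EBP-ATF response element, TGATGNAA on either strand, was in 0 of the 11 windows and in 3.97% of all. No member window held more than 1 kind of motif. These matches describe letters in a window, not bound sites.

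Pi-class Gstp1 and omega-class Gsto1 were the most abundant of the 10 mRNAs in all 4 groups and together held 80.3% to 87.3% of their summed TPM. The sum of the 10 genes was 567 to 609.9 TPM in male WT, 669.6 to 693 TPM in male KO, 686 to 712 TPM in female WT and 748 to 762 TPM in female KO libraries. Gstp1 led in both male groups, and Gsto1 led in both female groups, although in female KO libraries the values of Gsto1 and Gstp1 overlapped. The ratio of Gstp1 to Gsto1 TPM was 1.24 to 1.29 in male WT and 2.32 to 2.51 in male KO libraries. In female libraries that ratio was 0.922 to 0.957 under the WT label and 0.922 to 0.997 under the KO label. No test was run on the sum or the ratio.

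**Figure D1:**
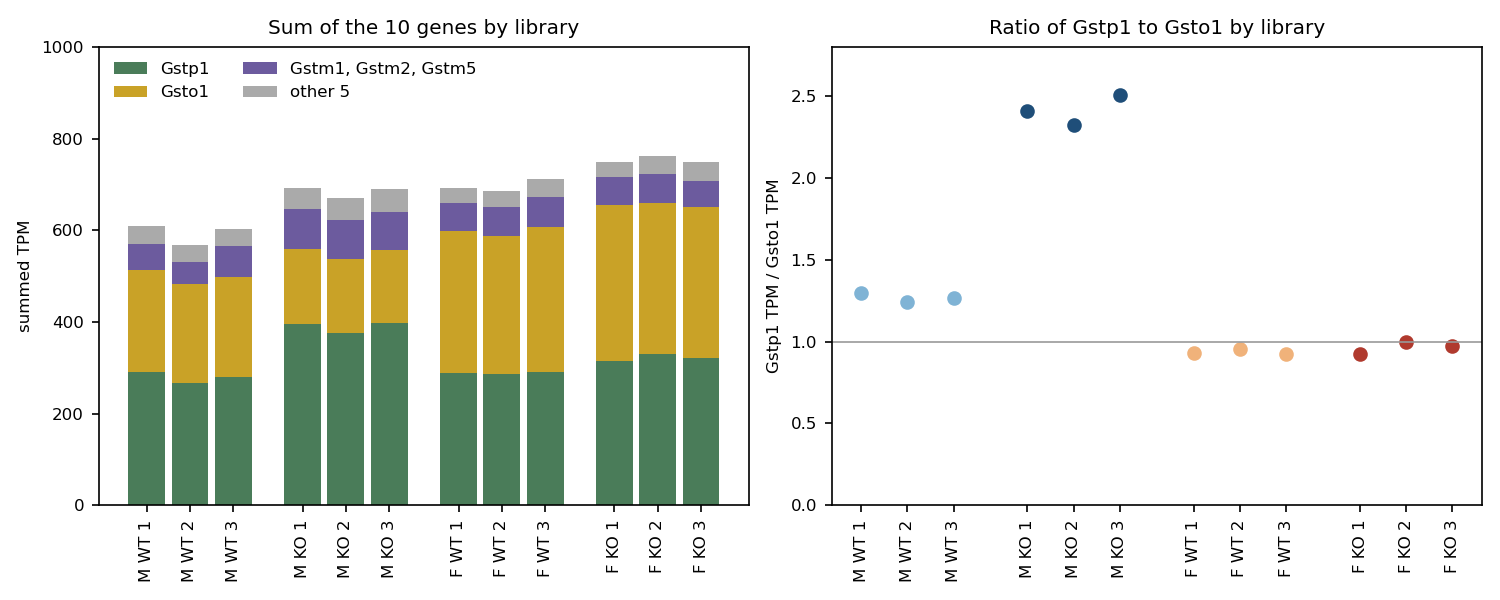
Summed TPM of the 10 GST genes (left) and the ratio of Gstp1 to Gsto1 TPM (right) in each of the 12 libraries, grouped as male (M) or female (F), WT or KO, replicate 1 to 3. The male KO libraries stand apart in the right panel, at 2.32 to 2.51, while all female libraries lie between 0.922 and 0.997, under the grey line at 1.

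Mu-class Gstm5 was in the third place in every group, with group means of 33.1 to 49.5 TPM, and did not overlap its neighbours in the order. Gstz1, Gstm1 and Gsta4 followed in the fourth to sixth places at 11.6 to 23.6 TPM, and Gstm2 was seventh at 6.77 to 11.8 TPM. The values of Gstz1 and Gstm1 overlapped in male WT, male KO and female KO libraries. Mgst1, Gstt1 and Gstt2 were the lowest, and the values of Gstt1 and Gstt2 overlapped in the male KO and in both female groups. At such levels, a difference on the log2(TPM + 1) scale used here understates the fold change of the TPM.

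In male MEFs, the libraries labelled KO held more Gstp1, Gstm1, Gstm5, Gstz1 and Mgst1 mRNA and less Gsto1 mRNA than those labelled WT. Of the 10 genes, 5 were called higher and 1 lower at an adjusted p under 0.05 (limma, Benjamini-Hochberg over 12504 genes), where 21.6% of all tested genes were called, 10.7% higher and 10.9% lower. The median difference of the 10 genes was 0.39 on the log2(TPM + 1) scale, against -0.015 over all tested genes. KO and WT values did not overlap for 7 of the 10, as for 40.0% of all tested genes.

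In female MEFs, Gstp1 was higher and Gstm5 and Mgst1 were lower in the libraries labelled KO. This made 1 gene called higher and 2 lower, against 11.5% of all tested genes called, 5.63% higher and 5.84% lower (limma, Benjamini-Hochberg). The median difference of the 10 genes was 0.11 on the log2(TPM + 1) scale, against -0.023 over all tested genes. Values of KO and WT did not overlap for 6 of the 10 genes, as for 33.6% of all tested genes.

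The difference between the male and the female KO response was itself tested over all 12 libraries. It was called for 4 of the 10 genes, against 13.0% of all tested genes (limma, Benjamini-Hochberg). The male difference was the higher one for Gstm5, Mgst1 and Gstp1, as for 6.70% of all tested genes, and the lower one for Gsto1, as for 6.33%. Each of the 4 calls held under every alternative tried for it, 18 to 20 per gene, including those without 1 library.

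**Figure D2:**
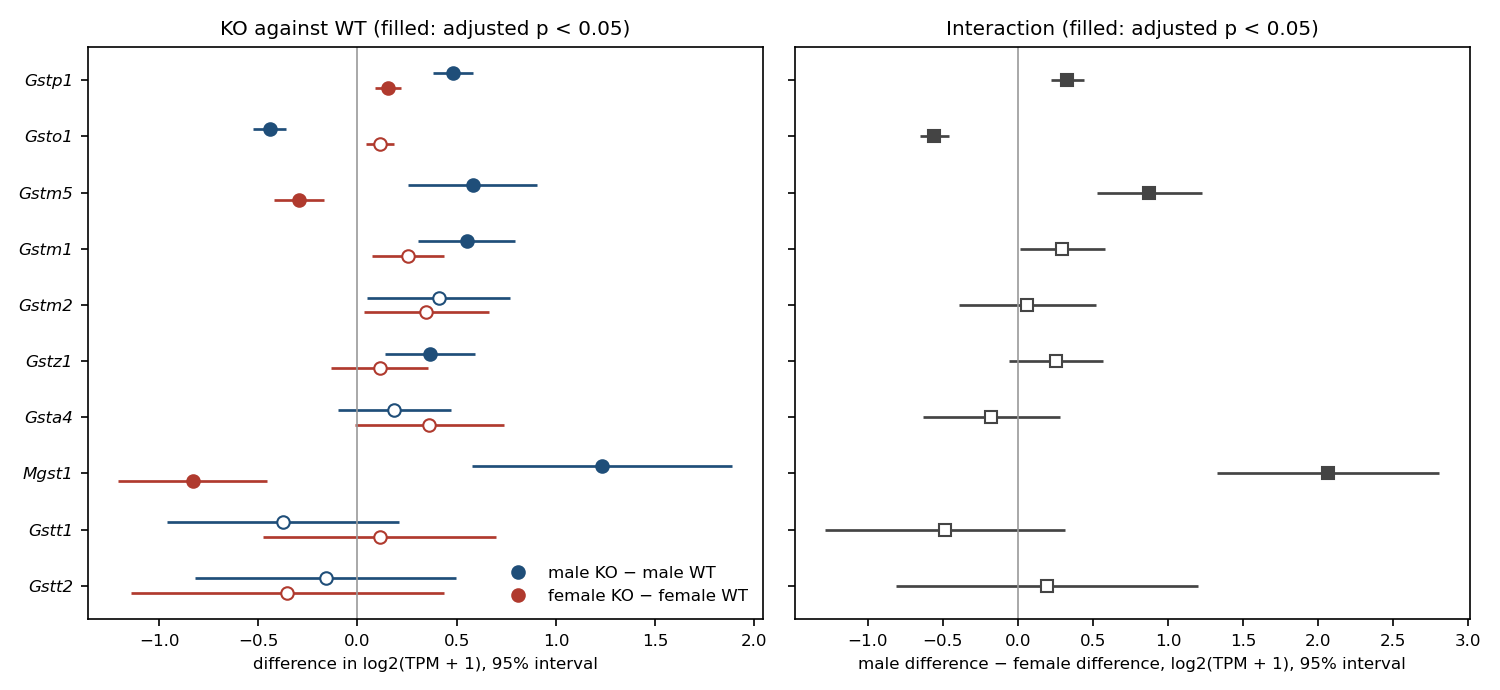
Left, the difference of KO minus WT in log2(TPM + 1) for each GST gene in male (blue) and female (red) MEFs, and right, the male minus the female difference. Points are estimates, bars 95% intervals, and filled points had an adjusted p under 0.05. Gstm5 and Mgst1 lie on opposite sides of 0 in the 2 sexes, and Gsto1 is the gene called lower in male KO libraries.

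Mgst1 (ENSMUSG00000008540.11, chr6:138140316-138156755, plus strand) encodes the microsomal enzyme that conjugates glutathione and reduces lipid hydroperoxides within membranes. In male MEFs it was at 1.52, 3.72 and 2.13 TPM in the WT and at 4.91, 7.68 and 8.42 TPM in the KO libraries. All male KO values lay above all male WT values. The difference was 1.23 ± 0.28 (SE) on the log2(TPM + 1) scale (95% interval 0.58 to 1.89, adjusted p = 0.0202, limma), with a ratio of mean TPM of 2.85. In female MEFs it was at 4.01, 5.77 and 4.55 TPM in the WT and at 2.34, 1.94 and 2.41 TPM in the KO libraries. There the order was the opposite, with all KO values below all WT values. The difference was -0.83 ± 0.16 (95% interval -1.20 to -0.46, adjusted p = 0.0200, limma), with a ratio of mean TPM of 0.466. The male difference exceeded the female one by 2.06 ± 0.34 (adjusted p = 0.00165, limma; 5.37e-04 to 0.00586 over the alternatives).

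Neither within-sex call of Mgst1 held in every case. Without 1 library, the Mgst1 difference was 1.03 to 1.48 in male and -0.93 to -0.71 in female MEFs. The male call was lost without male WT replicate 1 (adjusted p = 0.0576, limma), WT replicate 3 (0.0679), KO replicate 2 (0.0651) or KO replicate 3 (0.0718), and without the filter on low values (0.0872). The female call was lost without female WT replicate 2 (adjusted p = 0.0582, limma), WT replicate 3 (0.0621), KO replicate 1 (0.0560), KO replicate 2 (0.0655) or KO replicate 3 (0.0517), and without the filter (0.0570).

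Gstm5 (ENSMUSG00000004032.10, chr3:107895821-107898686, plus strand) encodes a mu-class enzyme known from brain and testis. Male WT libraries held 34.1, 26.4 and 38.8 TPM and male KO libraries 53.6, 45.9 and 49.0 TPM. The KO values were all higher, and the WT values were the more spread. The difference was 0.58 ± 0.14 (SE) on the log2(TPM + 1) scale (adjusted p = 0.0241, limma). Female WT libraries held 44.1, 42.8 and 44.6 TPM and female KO libraries 37.2, 35.9 and 33.7 TPM. Here the KO values were all lower, and the difference was -0.29 ± 0.05 (adjusted p = 0.0172, limma). The male difference exceeded the female one by 0.88 ± 0.16 (95% interval 0.53 to 1.22, adjusted p = 0.00322, limma; 8.63e-04 to 0.0103 over the alternatives).

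As for Mgst1, neither within-sex call of Gstm5 held in every case. Without 1 library, the Gstm5 difference was 0.43 to 0.70 in male and -0.33 to -0.26 in female MEFs. The male call was lost without male WT replicate 1 (adjusted p = 0.0582, limma), KO replicate 1 (0.0808) or KO replicate 3 (0.0707), and without the filter (0.0988). The female call was lost without female WT replicate 1 (adjusted p = 0.0627, limma), WT replicate 3 (0.0643) or KO replicate 2 (0.0527), with all 12 libraries in one fit (0.112), and where Gstm1 to Gstm7 were summed (difference -0.068, adjusted p = 0.446). Of the 31-base words of Gstm5 transcripts, 11.1% also occur in other genes, here the antisense transcript 4933431E20Rik, for which no value was analysed here.

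Gsto1 (ENSMUSG00000025068.7, chr19:47854970-47864790, plus strand) encodes the omega-class enzyme with thiol transferase and dehydroascorbate reductase activity. In male MEFs it was at 224, 215 and 219.8 TPM in the WT and at 164, 162 and 159 TPM in the KO libraries. The groups were far apart for their spread, with all KO values lower. The ratio of mean TPM was 0.735 and the difference -0.44 ± 0.03 (SE; log2(TPM + 1) scale; adjusted p = 2.17e-04, limma). In female MEFs it was at 309, 299.7 and 316 TPM in the WT and at 340.5, 331 and 329.6 TPM in the KO libraries. All female KO values lay above all WT values, with a difference of 0.11 ± 0.03 (adjusted p = 0.0601, limma) that did not pass the test. Under median-of-ratios scaling (adjusted p = 0.0378, limma) and with all 12 libraries in one fit (0.0291) the female difference did pass. The male minus the female difference was -0.56 ± 0.04 (95% interval -0.65 to -0.46, adjusted p = 6.95e-06, limma; 4.97e-06 to 1.33e-04 over the alternatives).

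The male call of Gsto1 held in all 14 alternatives. Cfap43 lies over the whole Gsto1 gene on the opposite strand. Its mean was 28.7 TPM and it was not called in either sex. Gsto1 transcripts share no 31-base word with another gene, Cfap43 included. The strand setting of the quantification was not given in the sources used here.

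Gstp1 (ENSMUSG00000060803.5, chr19:4035407-4037985, minus strand) encodes the pi-class enzyme, the main GST of many cultured cells. Male WT libraries held 289.8, 267 and 279 TPM and male KO libraries 395, 376 and 398 TPM. All KO values were higher, with a ratio of mean TPM of 1.40 and a difference of 0.48 ± 0.04 (SE; log2(TPM + 1) scale; adjusted p = 3.76e-04, limma). Female WT libraries held 288, 287 and 291 TPM and female KO libraries 314, 329.7 and 321 TPM. Again all KO values were higher, by a ratio of mean TPM of 1.11 and a difference of 0.15 ± 0.03 (adjusted p = 0.0183, limma). The male difference was the larger by 0.33 ± 0.05 (95% interval 0.22 to 0.44, adjusted p = 0.00110, limma; 8.79e-04 to 0.0103 over the alternatives).

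The male call of Gstp1 held in all 15 alternatives. The female call was lost without female WT replicate 1 (adjusted p = 0.0625, limma), WT replicate 2 (0.0582), WT replicate 3 (0.0577), KO replicate 2 (0.0539) or KO replicate 3 (0.0566), and without the mean-variance trend (0.0936). Of the 31-base words of Gstp1 transcripts, 38.5% are also in Gstp2, so the split between these near-identical genes is uncertain. Gstp2 had at most 0.775 TPM in any library, and the sum of Gstp1, Gstp2 and Gstp3 gave differences of 0.48 in male and 0.16 in female MEFs (adjusted p = 3.73e-04 and 0.0198, limma).

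**Figure D3:**
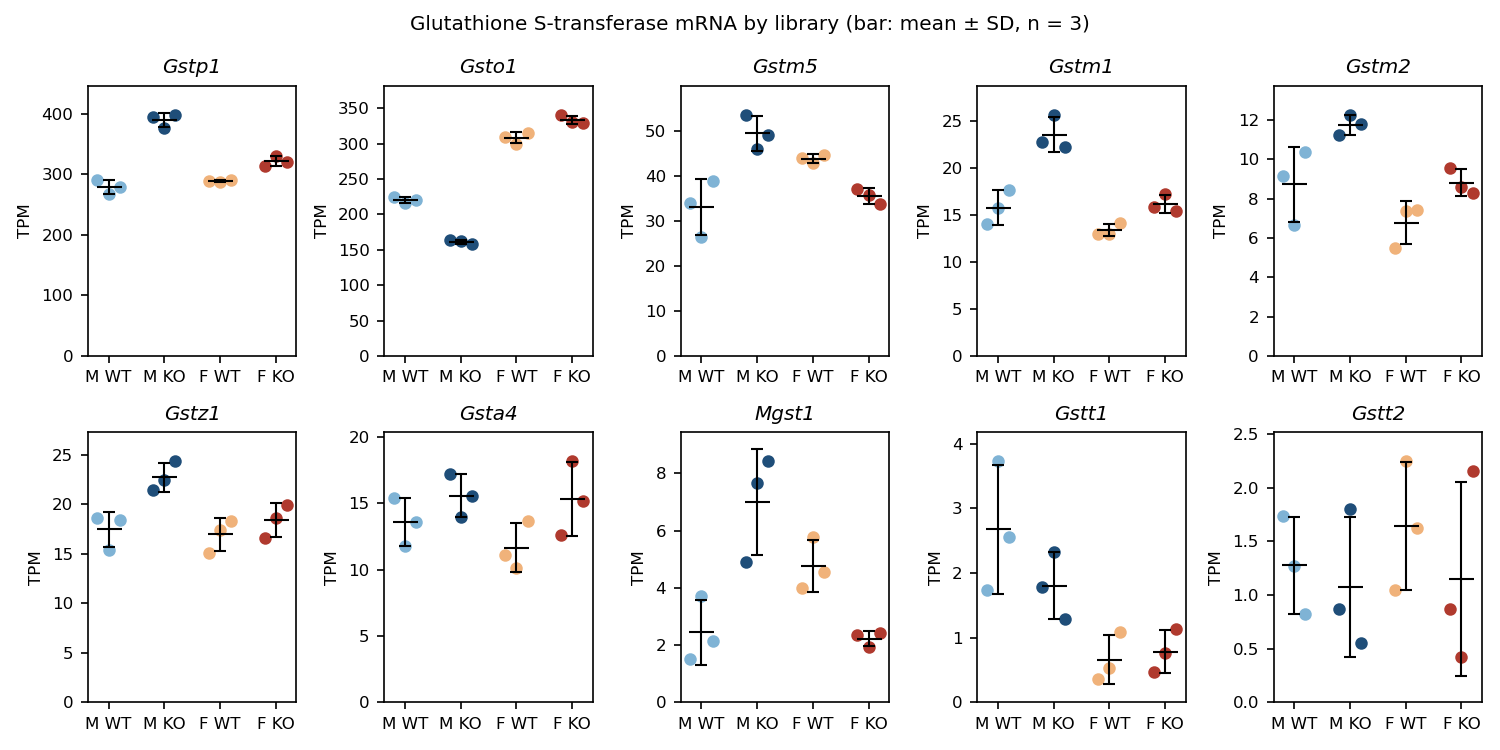
TPM of the 10 GST genes in each library, on linear axes from 0 with a range of their own, for male (M) and female (F) WT and KO MEFs. Points are the 3 libraries of a group and black bars the mean ± SD. Mgst1 and Gstm5 are higher in M KO than in M WT and lower in F KO than in F WT, whereas Gsto1 is lower in M KO than in M WT and not in F KO.

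Gstm1 and Gstm2 encode the other mu-class enzymes of the list, liver-abundant Gstm1 among them. Gstm1 (chr3:108012255-108017973, minus strand) was at 14.0, 15.7 and 17.7 TPM in male WT and at 22.8, 25.7 and 22.3 TPM in male KO libraries. The male groups did not overlap, and the difference was 0.55 ± 0.10 (SE; log2(TPM + 1) scale; adjusted p = 0.0103, limma), with a ratio of mean TPM of 1.49. In female libraries Gstm1 was at 13.0, 13.0 and 14.2 TPM under the WT label and at 15.9, 17.2 and 15.4 TPM under the KO label. These groups did not overlap either, but the difference of 0.25 ± 0.08 did not pass (adjusted p = 0.0852, limma). The response was not shown to differ between the sexes (0.30, 95% interval 0.02 to 0.58, adjusted p = 0.172, limma). The male call of Gstm1 held in all 15 alternatives.

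Gstm2 (chr3:107981702-107986453, minus strand) was at 9.17, 6.66 and 10.4 TPM in male WT, 11.2, 12.3 and 11.8 TPM in male KO, 5.51, 7.35 and 7.45 TPM in female WT and 9.58, 8.59 and 8.29 TPM in female KO libraries. KO values lay above WT values in both sexes. The differences of 0.41 in male and 0.35 in female MEFs on the log2(TPM + 1) scale did not pass (adjusted p = 0.107 and 0.150, limma). Of the 31-base words of Gstm1 and Gstm2 transcripts, 28.8% and 12.2% are shared with other genes. The response of Gstm2 was not shown to differ between the sexes (0.063, adjusted p = 0.897, limma). The sum of Gstm1 to Gstm7 rose by 0.60 ± 0.10 in male KO libraries (adjusted p = 0.00741, limma). It was at -0.068 ± 0.05 in female MEFs (adjusted p = 0.446) and differed between the sexes by 0.67 ± 0.12 (adjusted p = 0.00377). This sum includes Gstm5, the most abundant of these genes, whose female difference was -0.29, whereas those of Gstm1 and Gstm2 were above 0.

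The mu-class genes lie together on chromosome 3. Gstm4, which is not among the 10 genes, was at 1.36 TPM (mean) in male WT and 2.74 TPM in male KO libraries, a difference of 0.66 ± 0.17 (adjusted p = 0.0355, limma) that was lost without male WT replicate 1, 2 or 3 or KO replicate 1 or 3 (adjusted p from 0.0595 to 0.103, limma). The nearest tested genes outside the cluster, Eps8l3 at 2921 bases from Gstm5 and Ampd2 at 56089 bases from Gstm1, were not called in either sex (adjusted p of 0.113 or more). Whether the female response of Gstm5 differed from that of Gstm1 and Gstm2 was not tested.

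**Figure D4:**
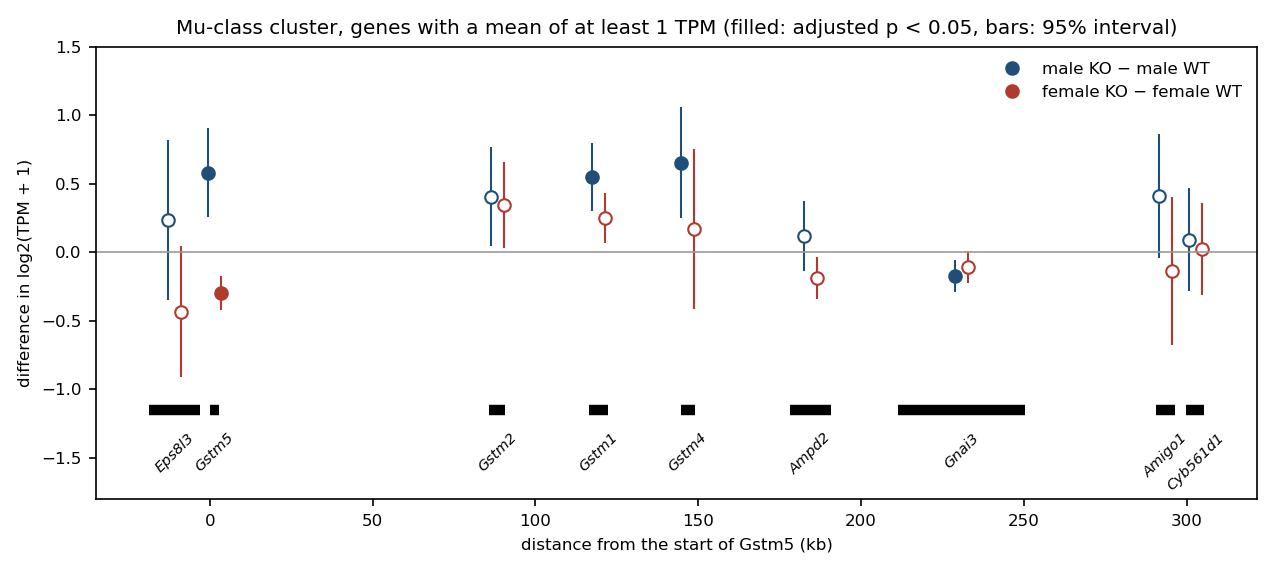
Differences of KO minus WT in log2(TPM + 1) for the tested genes of the mu-class cluster and its flanks, by distance from the start of Gstm5 in kb, in male (blue) and female (red) MEFs, offset sideways from each gene's centre. Black bars show gene spans, vertical bars 95% intervals and filled points an adjusted p under 0.05. In female MEFs Gstm5 lay below 0 and was called. In male MEFs Gstm5, Gstm1 and Gstm4 lay above 0 and were called. The flanking gene Gnai3 lay below 0 there and was called (-0.17, adjusted p = 0.0477, limma).

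Gstz1 encodes the zeta-class enzyme, maleylacetoacetate isomerase. Gstz1 (chr12:87147165-87164723, plus strand) was at 18.6, 15.4 and 18.4 TPM in male WT and at 21.4, 22.4 and 24.3 TPM in male KO libraries. The male groups did not overlap, and the difference was 0.36 ± 0.10 (SE; log2(TPM + 1) scale; adjusted p = 0.0351, limma). This call was lost without any 1 of the 6 male libraries: WT replicate 1, 2 or 3 (adjusted p = 0.0561, 0.0797 and 0.0654, limma) or KO replicate 1, 2 or 3 (0.0596, 0.0754 and 0.116), and without the filter (0.0822). In female libraries Gstz1 was at 15.1 to 18.3 TPM under the WT label and at 16.6 to 19.9 TPM under the KO label, and the groups overlapped (difference 0.11, adjusted p = 0.532). Gstz1 overlaps Pomt2 by 804 bases on the opposite strand. The next enzyme of tyrosine breakdown, Fah, rose by 0.88 ± 0.09 in male KO libraries (adjusted p = 8.44e-04, limma), against 0.20 ± 0.07 in female MEFs (adjusted p = 0.106), and its response differed between the sexes by 0.68 ± 0.11 (adjusted p = 0.00122). Tat, Hpd and Hgd, which act upstream in this pathway, had at most 0.147 TPM in any library.

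Gsta4, the alpha-class enzyme with high activity for 4-hydroxynonenal, was at 11.8 to 15.4 TPM in male WT, 14.0 to 17.2 TPM in male KO, 10.1 to 13.7 TPM in female WT and 12.6 to 18.2 TPM in female KO libraries. The groups overlapped in both sexes, with differences of 0.18 (95% interval -0.10 to 0.47) in male and 0.36 (95% interval -0.013 to 0.74) in female MEFs (adjusted p = 0.325 and 0.197, limma). Its neighbour Ick, 10667 bases away, was called higher in male KO libraries (0.54, adjusted p = 0.00806, limma) and not in female ones (0.23, adjusted p = 0.248).

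Theta-class Gstt1 and Gstt2, which act on small halogenated compounds and on sulfate esters, did not differ detectably between KO and WT. Gstt1 was at 1.74, 3.72 and 2.56 TPM in male WT, 1.79, 2.33 and 1.29 TPM in male KO, 0.357, 0.534 and 1.09 TPM in female WT and 0.468, 0.757 and 1.13 TPM in female KO libraries. The KO and WT groups of each sex overlapped, whereas every male WT value lay above every female WT value. Gstt2 ranged from 0.420 to 2.24 TPM over the 12 libraries and overlapped between all groups. The 95% intervals of KO minus WT on the log2(TPM + 1) scale were wide for Gstt1 (-0.96 to 0.21 in male and -0.48 to 0.70 in female MEFs) and for Gstt2 (-0.82 to 0.50 and -1.14 to 0.44).

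Male and female MEFs also differed within a genotype. Among the WT libraries, Gsto1 was lower in male MEFs, with a ratio of mean TPM of 0.713 (difference -0.49 ± 0.03, adjusted p = 2.09e-04, limma), and Gstt1 was higher, with a ratio of 4.05 (difference 1.14 ± 0.27, adjusted p = 0.0360). These were 2 of the 10 genes, against 12.8% of all tested genes called, 6.56% lower and 6.26% higher in male MEFs. The Gstt1 call was lost without male WT replicate 2 (adjusted p = 0.0934, limma) or 3 (0.0958), without female WT replicate 1 (0.105) or 2 (0.101), without the filter (0.103) and where Gstt1 to Gstt4 were summed (0.226). Mgst1 (difference -0.78, adjusted p = 0.0943) and Gstm5 (-0.41, adjusted p = 0.0879) were not called, although male and female WT values did not overlap for either, as for 4 of the 10 genes and 33.4% of all tested genes. Mgst1 passed without male WT replicate 2 (0.0307) and Gstm5 without male WT replicate 3 (0.0447), and both passed with all 12 libraries in one fit (0.0476 and 0.0276).

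Among the KO libraries, 5 of the 10 genes were higher in male MEFs and 1 was lower, against 16.6% of all tested genes called, 8.17% higher and 8.39% lower (limma, Benjamini-Hochberg). Gsto1 was at a ratio of mean TPM of 0.484 in male against female KO libraries (difference -1.04 ± 0.03, adjusted p = 4.75e-06, limma). Mgst1 was at a ratio of 3.14 (difference 1.28 ± 0.20, adjusted p = 0.00567), Gstm1 at 1.46 (adjusted p = 0.00694), Gstm5 at 1.39 (adjusted p = 0.00600), Gstm2 at 1.33 (adjusted p = 0.0345) and Gstp1 at 1.21 (adjusted p = 0.00249). The values of male and female KO libraries did not overlap for any of these 6, nor for Gstt1 and Gstz1, so for 8 of the 10 genes and 35.4% of all tested genes. The call of Gstm2 was lost without male KO replicate 1 (adjusted p = 0.0673, limma), 2 (0.0840) or 3 (0.102) or without female KO replicate 2 (0.101) or 3 (0.102), and with all 12 libraries in one fit (0.0953). The mu-class genes Gstm1, Gstm2 and Gstm5 held 12.4% ± 0.31 (SD, n = 3) of the summed TPM of the 10 genes in male KO and 8.04% ± 0.34 (SD, n = 3) in female KO libraries. These comparisons share their libraries with those of KO and WT.

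The other soluble and kappa-class GST genes were little expressed. Of 14 other soluble and kappa-class genes, 4 had a mean of at least 1 TPM (Gstm4, Gstk1, Gsto2 and Gstt3), and of these Gstm4 was called in male KO against WT and none in the female comparison or the interaction. Gsta1, Gsta2, Gsta3, Gstm3, Gstm6, Gstp2, Gstp3, Gstt4 and Hpgds did not reach 1 TPM in any library. Gstm7, with a mean under 1 TPM and so not tested, was listed at 0, 0 and 0.0889 TPM in male WT and at 2.48, 1.72 and 1.44 TPM in male KO libraries. Female libraries held 0.269, 1.43 and 0 TPM of Gstm7 under the WT label and 0.656, 0.298 and 0.0976 TPM under the KO label, and these overlapped. Of 5 other membrane genes of the Mgst1 family, 2 were tested, and Mgst3, a microsomal glutathione transferase and peroxidase, was called. Mgst3 was at 24.8, 24.4 and 22.1 TPM in male WT and at 13.5, 12.7 and 12.5 TPM in male KO libraries. It fell by 0.83 ± 0.08 on the log2(TPM + 1) scale in males (adjusted p = 4.77e-04, limma), the opposite direction to Mgst1. Female libraries held 14.8, 14.7 and 12.3 TPM under the WT label and 15.1, 13.4 and 17.6 TPM under the KO label. These overlapped (0.13, adjusted p = 0.536), and the response of Mgst3 differed between the sexes by -0.97 ± 0.14 (adjusted p = 9.28e-04, limma).

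Several genes that supply glutathione responded differently in male and female MEFs. Of 6 tested genes of glutathione synthesis and cysteine supply, 2 were called higher and 1 lower in male KO libraries, 0 higher and 1 lower in female KO libraries, and the response of 4 differed between the sexes (limma, Benjamini-Hochberg). Over all tested genes, 21.6% were called in male and 11.5% in female MEFs and 13.0% in the interaction. Their median difference was 0.24 in male and -0.18 in female MEFs on the log2(TPM + 1) scale, against -0.015 and -0.023 over all tested genes. Cth, the enzyme that makes cysteine from cystathionine, was at 19.4, 16.2 and 16.0 TPM in male WT and 37.1, 36.4 and 30.9 TPM in male KO libraries. In female libraries Cth was at 34.5, 34.4 and 34.5 TPM under the WT label and at 23.2, 17.9 and 20.9 TPM under the KO label. It thus rose in male and fell in female KO libraries without overlap (0.97 ± 0.10, adjusted p = 9.22e-04, and -0.72 ± 0.09, adjusted p = 0.00541, limma), and the difference between the sexes was 1.69 ± 0.15 (adjusted p = 1.53e-05).

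Both subunits of the cystine importer responded differently in male and female MEFs. Slc3a2 rose by 0.30 ± 0.04 in male KO libraries (adjusted p = 0.00313, limma), with a difference between the sexes of 0.39 ± 0.06 (adjusted p = 7.54e-04). Slc7a11 was not called within a sex (0.45 in male, adjusted p = 0.0690, and -0.35 in female MEFs, adjusted p = 0.113), but its response differed between the sexes by 0.80 ± 0.17 (adjusted p = 0.00809). The same held for Gclc, the catalytic subunit of the rate-limiting synthesis enzyme (0.17, adjusted p = 0.0797, and -0.14, adjusted p = 0.120, with a difference of 0.31 ± 0.07, adjusted p = 0.0125, limma). Glutathione synthetase, Gss, fell by 0.28 ± 0.07 in male KO libraries (adjusted p = 0.0350, limma), a call lost without male WT replicate 1 (0.0755) or 2 (0.0894) or KO replicate 1 (0.0831) or 3 (0.110).

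Of 8 tested genes of glutathione reduction, breakdown and conjugate processing, 2 were called higher and 2 lower in male KO libraries and 1 higher in female KO libraries, against 21.6% and 11.5% of all tested genes called. Ggt7, a member of the gamma-glutamyl transferase family, was at 6.89, 5.58 and 4.69 TPM in male WT and at 15.0, 26.8 and 24.4 TPM in male KO libraries, without overlap (1.75 ± 0.23, adjusted p = 0.00220, limma). Chac1, which cleaves glutathione in the cytosol, was at 28.8, 29.9 and 30.3 TPM in male WT and at 60.3, 58.5 and 64.2 TPM in male KO libraries (1.02 ± 0.06, adjusted p = 4.40e-05, limma). In female MEFs neither passed (-0.28, adjusted p = 0.266, and -0.19, adjusted p = 0.0705), and both differed between the sexes (2.03 ± 0.29, adjusted p = 6.17e-04, and 1.20 ± 0.07, adjusted p = 1.12e-06, limma). Glutathione reductase, Gsr, fell by 0.45 ± 0.06 in male KO libraries (adjusted p = 0.00317, limma), with a difference between the sexes of -0.45 ± 0.10 (adjusted p = 0.00936). The aminopeptidase Lap3 fell by 0.17 in males (adjusted p = 0.0295, limma), a call lost without any male library but KO replicate 2 (adjusted p from 0.0698 to 0.0980). The aminopeptidase Anpep rose by 0.65 in females (adjusted p = 0.0136), a call lost without female WT replicate 1 or 3 or KO replicate 1 or 3 (adjusted p from 0.0503 to 0.0527).

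**Figure D5:**
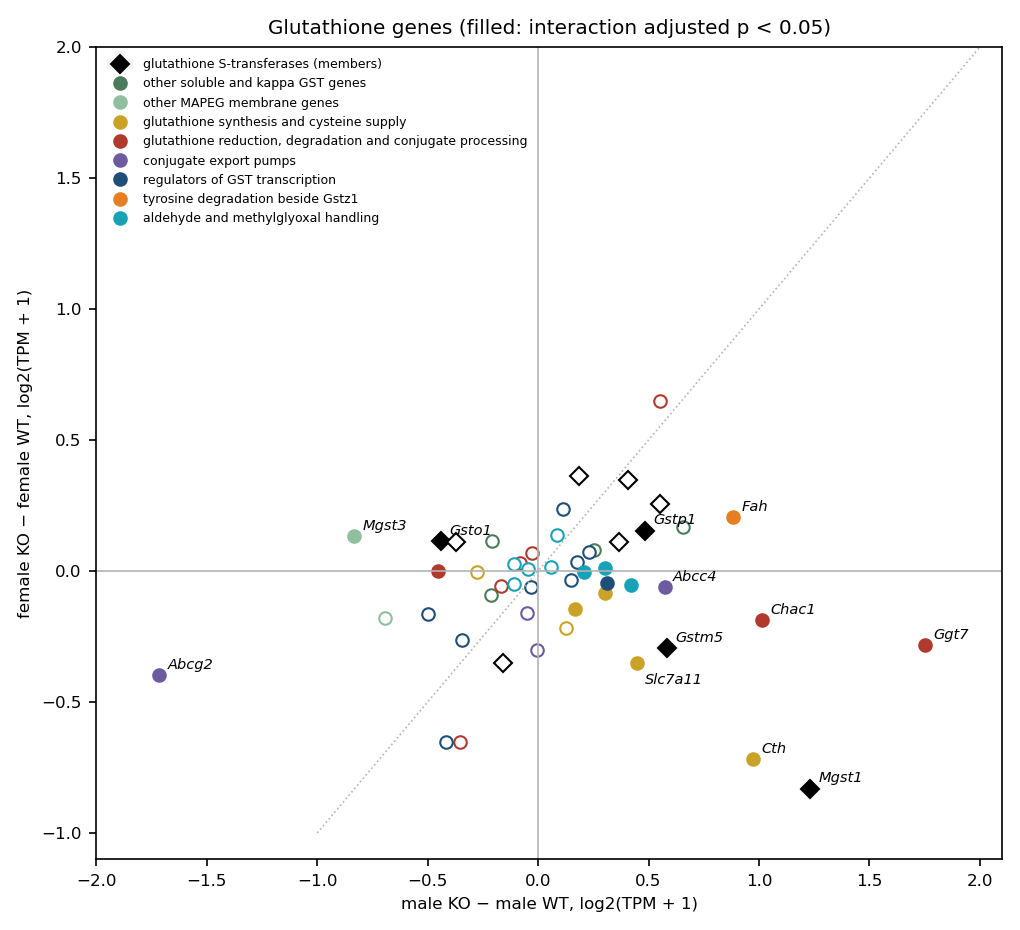
Differences of KO minus WT in log2(TPM + 1) in male (horizontal axis) and female (vertical axis) MEFs for the GST genes (diamonds) and the tested genes of the other glutathione lists (circles, coloured by list). Filled symbols had an interaction with an adjusted p under 0.05, and of these the GST genes and those with a difference over 0.6 between the sexes are named. On the dotted line both sexes would differ equally. Mgst1, Cth, Ggt7 and Chac1 lie at the lower right, higher in male and below 0 in female KO libraries, and Abcg2 and Mgst3 at the left.

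Of 4 tested export pumps, 1 was called higher and 1 lower in male KO libraries and 2 lower in female KO libraries (limma, Benjamini-Hochberg). Over all tested genes, 21.6% were called in male and 11.5% in female MEFs. The interaction was called as higher for 1 pump and as lower for 1, against 13.0% of all tested genes called. Abcg2, an efflux pump of broad specificity, was at 80.7, 81.5 and 78.2 TPM in male WT and at 24.7, 27.2 and 19.8 TPM in male KO libraries. It fell in both sexes, by 1.72 ± 0.11 in male and 0.40 ± 0.08 in female KO libraries (adjusted p = 8.37e-05 and 0.0202, limma), and by more in males (-1.32 ± 0.14, adjusted p = 7.62e-05). The female call of Abcg2 was lost without female WT replicate 3 (adjusted p = 0.0558, limma) or KO replicate 1 (0.0659) or 2 (0.0653). Abcc4 rose in male KO libraries (0.57 ± 0.09, adjusted p = 0.00420), with a difference between the sexes of 0.63 ± 0.11 (adjusted p = 0.00221). Abcc5 fell by 0.30 in females (adjusted p = 0.0293, limma), a call lost without any 1 of the 6 female libraries (adjusted p from 0.0518 to 0.0908). Abcc2 and Abcc3 had a mean under 1 TPM and were not tested. Abcc3 was at 0.0709 to 0.397 TPM in male WT and 1.76 to 3.21 TPM in male KO libraries. Its female values overlapped, at 0.322 to 0.974 TPM under the WT label and 0.0625 to 0.367 TPM under the KO label. Abcc2 had at most 0.348 TPM in any library.

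Of 9 regulators of GST transcription, all tested, 2 were called higher and 3 lower in male KO libraries and 1 higher and 2 lower in female KO libraries (limma, Benjamini-Hochberg). Over all tested genes, 10.7% were called higher and 10.9% lower in male and 5.63% higher and 5.84% lower in female KO libraries. Nfe2l2, which encodes NRF2, rose by 0.17 ± 0.04 in males on the log2(TPM + 1) scale (adjusted p = 0.0312), a call lost without any 1 of the 6 male libraries (adjusted p from 0.0649 to 0.0911). Of the small MAF partners of NRF2, Mafg rose by 0.31 (adjusted p = 0.0228), Mafk fell by 0.50 (adjusted p = 0.0114) and Maff fell by 0.34 (adjusted p = 0.0224) in males. Ahr, the dioxin receptor, fell by 0.42 in male and 0.65 in female KO libraries (adjusted p = 0.0360 and 0.00841), and Maff (0.27, adjusted p = 0.0479) fell and Bach1, a repressor at antioxidant elements, rose (0.24, adjusted p = 0.0417) in females. The female calls of Maff and Bach1 were each lost without any 1 of the 6 female libraries (adjusted p from 0.0528 to 0.135 and from 0.0858 to 0.114, limma). Among the male calls, Mafg was lost without WT replicate 1 or 3 or KO replicate 3 (0.0607 to 0.0761), Maff without WT replicate 1 or 3 or KO replicate 1 or 3 (0.0713 to 0.0821) and Ahr without any male library but KO replicate 2 (0.0699 to 0.113). Keap1, Nfe2l1 and Arnt were not called. Of the 9 regulators, against 13.0% of all tested genes, Mafg was the 1 whose response differed between the sexes (0.36 ± 0.10, adjusted p = 0.0381, limma), a call lost without male WT replicate 1 or 3, female WT replicate 2 or 3, male KO replicate 2 or 3 or female KO replicate 1 or 3 (0.0618 to 0.0913).

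Of 8 genes of aldehyde and methylglyoxal handling, 3 were called higher in male KO libraries, none in female KO libraries (0 of 8, with the same limma test), and these 3 differed between the sexes. Of all tested genes, 10.7% were called higher in male and 5.63% in female KO libraries, and 13.0% in the interaction. They were the aldo-keto reductases Akr1a1 (0.21 ± 0.03, adjusted p = 0.00430), Akr1b3 (0.30 ± 0.06, adjusted p = 0.0116) and Akr1b8 (0.42 ± 0.07, adjusted p = 0.00609, limma). The differences between the sexes were 0.21, 0.29 and 0.47 (adjusted p = 0.00419, 0.0309 and 0.00440, limma). That of Akr1b3 was lost without male WT replicate 2 or 3, female WT replicate 1 or 3, male KO replicate 1 or 3 or female KO replicate 2 (0.0501 to 0.0744). It was also lost without the filter on low values (adjusted p = 0.0553, limma), under median-of-ratios scaling (0.0647) and without the mean-variance trend (0.0642).

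The genes whose pattern over the 12 libraries was nearest to that of a GST gene were ranked by the root mean square difference of log2(TPM + 1) after each gene was centred on its own mean. For Gstm5, which varied by 0.262 around its mean, they were Trpt1 (0.115), Mt1 (0.129) and Tspyl4 (0.133). For Gsto1, which varied by 0.416, they were Mmd (0.0645), Loxl2 (0.107) and Eif2s3x (0.110). Gstp1 varied by 0.191 and was nearest to Ckap4 (0.0467), P4hb (0.0531) and Mdfic (0.0575). Mgst1 varied by 0.599 and was nearest to Eya4 (0.240), Clu (0.250) and Chsy3 (0.261). These distances are descriptions over 4 groups of libraries, with no test.

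The nearest tested genes on either side of the remaining members were mostly not called. Ndufv1 and Cdk2ap2 beside Gstp1, Ddt and Mif beside the theta genes, Pomt2 and Tmed8 beside Gstz1, Dera beside Mgst1 and Ddx43 beside Gsta4 passed in neither sex and not in the interaction. Plekha5, 2267299 bases from Mgst1, was lower in both sexes (-0.48 in male and -0.40 in female KO libraries, adjusted p = 0.0263 and 0.0465, limma). Xpnpep1, 5067136 bases from Gsto1, was called in neither sex but in the interaction (-0.21, adjusted p = 0.0134).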

How the data were processed

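Polyadenylated RNA of 12 MEF cultures was measured, with 3 libraries in each of 4 groups given by the labels. The authors quantified reads with Salmon (1.10.1 in the submitters' processing notes) against GRCm38 and deposited TPM values per gene, so the depth and its counting error are unknown. Identifiers were matched to a GENCODE annotation of GRCm38 (99.4% matched, 93.6% with the same version).

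Because TPM are no read counts, differences were tested with limma (3.58.1, R 4.3.3) after a log2 transform with 1 added, letting the variance follow the mean. The 12504 genes averaging 1 TPM or more entered, p-values were adjusted over all of them (Benjamini-Hochberg), and an adjusted p under 0.05 made a call. Fits within a sex or a genotype used 6 libraries and the interaction all 12. Simulated data were used to test the code.

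As alternatives, the pseudocount was set to 0.1, the filter was dropped or raised to 5 TPM, values were scaled by median-of-ratios factors or quantile-normalized, the trend was dropped, the replicate number was added as a block, paralogs were summed, all 12 libraries entered one fit, and each library was left out. The 10 genes and the other lists were chosen with earlier results of these data known. The text names all 10, list genes past the threshold within a sex or in the interaction, the 3 genes nearest in pattern to each member called in the interaction, and the nearest tested non-GST gene on either side.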

Additional observations from a re-analysis of the deposited data

Results flagged for a closer look

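For 4 of the 10 GST genes, the difference between KO and WT libraries was itself different in male and female MEFs, by limma's interaction test over 12504 genes. The male minus female difference on the log2(TPM + 1) scale was 2.06 for Mgst1, 0.88 for Gstm5, -0.56 for Gsto1 and 0.33 for Gstp1. For Mgst1 and Gstm5, the within-sex differences had opposite signs and every KO library lay on the stated side of every WT library of its sex. The interaction was called for 13.0% of all tested genes. Genotype and stock cannot be told apart, and if a group was 1 line, sex and line cannot either.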

How the results depend on the processing

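The interaction calls of Gstm5, Mgst1, Gstp1 and Gsto1 held under all alternatives tried for each. Mgst1 averaged under 5 TPM and so did not enter the fit with the filter raised to that level. For Gstm5 and Gstp1, the alternative with paralogs summed tested the sum of the class and not the gene itself. Of the 21 calls of the 10 genes over the 5 comparisons, 13 held under every alternative, and none changed direction. Without the filter on low values, 3 rather than 6 of the 10 genes were called in male MEFs, and leaving out 1 male library gave 3 to 5. Over all genes, the male comparison called 2707, and 1813 to 2318 without 1 library. The female comparison called 3 of the 10 genes, 0 to 2 without 1 library, and 1434 genes in all, 774 to 835 without 1 library. Replicate numbers did not pair the libraries: deviations of same-numbered libraries correlated by r = -0.057 to 0.078, and a library was nearest to its own number in 13 of 36 comparisons. With the replicate number as a block, 0 of the 10 genes and 670 genes in all were called in female MEFs. The block also ended the calls of Gstz1 in male MEFs (adjusted p = 0.0512, limma), of Gstt1 between male and female WT (0.0552) and of Gstm2 between male and female KO (0.0995), and of Gstm4 in male MEFs (0.0809). Among the other list genes, it ended the male calls of Nfe2l2 (adjusted p = 0.0706, limma), Maff (0.0638) and Ahr (0.0560). The female calls of Anpep (0.0597), Abcc5 (0.0856), Bach1 (0.111) and Maff (0.0800) were lost with it too. Of 10 genes, the comparison of male with female WT called 2, but 1 without the filter or under the block. With the filter raised to 5 TPM it also called 1, as Gstt1 averaged less and did not enter that fit. The comparison called 4 with all 12 libraries in one fit, and 1 to 2 without 1 library. Its 1603 genes in all became 1037 to 1243 without 1 library, and the 2070 genes between male and female KO became 1328 to 1824. The cause of these shifts was not tested.

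Some uncalled differences changed sign. With paralogs summed, female Gstm1 and Gstm2 (each by the mu-class sum) were at -0.068, female Gstt1 at -0.053, the interaction of Gstt1 at 0.018, and between male and female WT the mu-class sum was at -0.19 and the theta-class sum at 0.53. Between male and female KO, Gstt2 was at 0.026 with a pseudocount of 0.1, 0.065 after quantile normalization and 0.54 with paralogs summed. Without 1 library, ranges that crossed 0 were -0.40 to 0.028 (Gstt2, male), -0.024 to 0.29 (Gstt1, female), -9.81e-04 to 0.12 (Sirt3, female), -0.10 to 0.19 (Gstm2, interaction), -0.064 to 0.51 (Gstt2, interaction), -0.036 to 0.12 (Gstz1, WT by sex), -0.090 to 0.16 (Gsta4, KO by sex) and -0.27 to 0.30 (Gstt2, KO by sex). Other uncalled differences also moved widely without 1 library: Gstm2 from 0.25 to 0.53 in male and 0.22 to 0.41 in female MEFs, Gsta4 from 0.094 to 0.27 in male and Gstz1 from 0.034 to 0.18 in female MEFs. The depth behind the TPM is unknown, and 3 libraries per group limit the precision.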

Other observations

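Csf1, a growth factor gene of macrophages that ends -135 kb from the start of Gstm5, was singled out after its values were seen. It was higher in the male KO libraries (0.40 on the log2(TPM + 1) scale, adjusted p = 6.53e-04, limma) and lower in the female KO libraries (-0.22, adjusted p = 0.0162), with a difference between the sexes of 0.62 (adjusted p = 1.75e-05). Eps8l3, which lies between Csf1 and Gstm5, was not called (0.24 in male and -0.43 in female MEFs, adjusted p = 0.540 and 0.224, limma). It averaged only 1.17 TPM.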
